A study of Mus musculus with 16 samples.

Results

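The comparison described here is that of H3K27ac at day 2 of differentiation (48 h) between preadipocytes that carry SETD5 and preadipocytes that carry the empty vector. It rests on 4 of the 16 libraries of the series, replicates A and B of each vector. Chromatin was prepared from 3T3-L1 cells, mouse fibroblasts that can be turned into fat cells by hormones. The cells had been infected with a retrovirus with no insert (label "Empty") or with one that carries mouse SETD5 with a V5 tag (label "SETD-V5"). The vector has a weak viral promoter, and the study used a line with moderate expression of SETD5 unless it states otherwise. All 4 cultures were differentiated with insulin, dexamethasone and IBMX, so that they shared the hormone treatment and differed in the vector. Each library was deposited as a list of islands, which are stretches of mm9 that the authors called as enriched for the mark in that library alone, with a score for each island. Islands of the 4 lists that overlapped by at least 1 bp were merged into 43542 regions. A region was called lost when both empty-vector lists and no SETD5 list held an island in it, and gained in the opposite case. By these rules 1882 regions were lost, 5644 were gained and 23573 were in all 4 lists.

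H3K27ac is acetylation of histone H3 at lysine 27, a mark of active enhancers and promoters. SETD5 is a SET-domain protein that works with the corepressor NCoR and the histone deacetylase HDAC3, which removes acetyl groups from histones. In adipogenesis, C/EBPβ and C/EBPδ act early and are followed by PPARγ and C/EBPα, which switch on the genes of lipid uptake, lipid storage and hormone secretion.

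The DNA of the lost regions that ranked highest in the empty-vector lists is shown first, because these are the stretches with the most prominent H3K27ac that no SETD5 list held. For each region, 200 bp of the part shared by both empty-vector lists are given, read 5′ to 3′ from the forward strand of mm9, with matches to the C/EBP motif TTGCNNAA on either strand in capitals. None of the stretches meets an annotated exon. They lie 16.2 kb from a start site of Smoc1, at the first part of Mgll, 7.92 kb from a start site of Pex5 and 5.51 kb from one of Slc25a26, as measured from the edge of the region.
Smoc1, chr12:82147081-82147280: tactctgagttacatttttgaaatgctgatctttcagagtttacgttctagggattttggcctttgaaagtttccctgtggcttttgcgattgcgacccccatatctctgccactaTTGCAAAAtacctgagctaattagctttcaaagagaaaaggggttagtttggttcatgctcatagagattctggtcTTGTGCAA
Mgll, chr6:88680841-88681040: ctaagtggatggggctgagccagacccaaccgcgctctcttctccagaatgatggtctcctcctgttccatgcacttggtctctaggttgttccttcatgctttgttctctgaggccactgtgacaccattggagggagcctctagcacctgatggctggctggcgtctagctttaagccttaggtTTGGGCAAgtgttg
Pex5, chr6:124378281-124378480: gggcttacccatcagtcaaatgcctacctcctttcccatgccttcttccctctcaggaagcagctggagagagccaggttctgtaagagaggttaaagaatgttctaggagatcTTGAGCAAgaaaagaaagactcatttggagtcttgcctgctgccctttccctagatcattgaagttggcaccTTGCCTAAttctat
Slc25a26, chr6:94440841-94441040: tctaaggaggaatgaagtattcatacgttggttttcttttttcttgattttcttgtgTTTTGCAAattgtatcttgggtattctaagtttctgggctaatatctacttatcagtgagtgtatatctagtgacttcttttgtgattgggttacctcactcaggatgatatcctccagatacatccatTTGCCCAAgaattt
The stretches were picked for the most matches within the shared islands and for meeting no exon. The share of regions with the C/EBP motif is given with the motif counts.

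For the gained regions, 200 bp of the part shared by both SETD5 lists are given in the same way for the highest-ranking pair, with matches to the AP-1 motif TGANTCA in capitals. The first lies in an intron of Kank4 and the second between genes, 16.6 kb from the start site of Actbl2.
Kank4, chr4:98460801-98461000: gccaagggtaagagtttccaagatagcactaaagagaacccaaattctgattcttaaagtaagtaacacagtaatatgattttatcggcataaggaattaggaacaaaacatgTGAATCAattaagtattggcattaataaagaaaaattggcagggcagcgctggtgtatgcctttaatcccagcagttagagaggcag
Actbl2, chr13:112022041-112022240: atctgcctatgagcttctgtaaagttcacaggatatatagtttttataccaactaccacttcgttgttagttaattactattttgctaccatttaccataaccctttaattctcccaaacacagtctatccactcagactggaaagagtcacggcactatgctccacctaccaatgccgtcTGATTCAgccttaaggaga

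The empty-vector lists held 31292 and 33131 islands (32212 ± 1300, SD, n = 2) and the SETD5 lists 39068 and 39451 (39260 ± 271, SD, n = 2). Both SETD5 lists were longer than both empty-vector lists, and the two-sided exact permutation test gave p = 0.33, the smallest value that 2 against 2 lists allow. The islands covered 122 Mb and 111 Mb with the empty vector and 110.0 Mb and 120.5 Mb with SETD5, so the larger number of islands came with no larger total length. The median island was 2800 bp and 2400 bp long with the empty vector and 2000 bp and 2200 bp with SETD5. The study states a higher total of reads for both SETD5 libraries. The part of depth in the number of islands was not tested. The lists give no reads per island, and the depth behind a single island is unknown. A region that is absent from a list was below the caller's threshold there, and a mark on fewer cells and less of the mark per cell cannot be told apart.

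Of the 26633 regions held by both empty-vector lists, 7.07% were lost with SETD5. The 12 lost regions described here are those that ranked highest and had a start site of a protein-coding gene within 50 kb. The region with the highest rank lay in an intron of Smoc1, a gene of a secreted calcium-binding protein, on chromosome 12 from 82144001 to 82160000. Its islands covered 15600 bp in empty-vector replicate A and 14200 bp in replicate B, and neither SETD5 list held an island there. They scored higher than 93.3% and 96.6% of the islands of their own lists. Next came a region at the start of Mgll (chromosome 6 from 88675201 to 88685000), which encodes the lipase that releases the last fatty acid of a stored triglyceride. It was covered over 9400 bp in both empty-vector lists, with score percentiles of 88.8 and 86.5.

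Pex5 encodes the receptor that brings proteins into peroxisomes. The lost region between genes near it (chromosome 6 from 124373001 to 124387800) was covered over 14400 bp and 13400 bp with the empty vector. A region near Slc25a26, the mitochondrial carrier of S-adenosylmethionine, had 5600 bp and 5200 bp, and one near Fis1, a gene of mitochondrial division, had 5000 bp and 4000 bp. The other regions of this set were nearest to Arhgef37, 2310001A20Rik, Fbxo4, Sgcd, Rorb, Dhrs7b and Gm10293, with 3400 bp to 7400 bp covered. All 12 regions also met the definition of a loss when only the 31000 highest-scoring islands of each list were used. Their choice by rank made this certain, so it is no separate support. Lost regions lay nearest to 967 genes within 50 kb, and 136 of these genes had more than 1. Plcb1, a phospholipase C, had 6 lost regions and Smoc1 had 4, while Mgll and Acsl1, which activates fatty acids, had 3 each.

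Of the 32272 regions held by both SETD5 lists, 17.5% were gained. The first of the 12 highest-ranking gained regions with a gene within 50 kb, in an intron of Kank4 (chromosome 4 from 98460201 to 98465400), was covered over 5200 bp and 4400 bp in SETD5 replicates A and B, with score percentiles of 85.7 and 86.3, and no empty-vector list held it. A region near Actbl2, an actin-like gene, on chromosome 13 from 112021601 to 112028600 had 6000 bp and 7000 bp. One in an intron of Pde8b, a phosphodiesterase that breaks down cyclic AMP, had 4200 bp and 3600 bp. At the start of Slitrk5, a membrane protein gene best known from neurons, islands of 3600 bp and 4000 bp were present with SETD5 and none with the empty vector. An intron of Cdh1, which encodes E-cadherin, had 5200 bp in both SETD5 lists. The set further held regions near 4930534B04Rik, Upf2, Il17rd, Crabp1, Btbd9 and Tasp1. All 12 were also gained with the 31000 highest-scoring islands of each list, which their choice by rank again made certain. Several genes had many gained regions nearest to them: Pde10a, another phosphodiesterase of cyclic nucleotides, had 11, and Kalrn and Vps13d had 7 each.

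Another of the 12 gained regions, listed under Lhfpl4 as the nearest start site, falls in the 3′ part of Setd5 itself (chromosome 6 from 113027359 to 113103429). In all, 7 gained regions lay within Setd5, and each of them met at least 1 coding exon of the gene. Of the 21 merged coding exons, 18 in SETD5 replicate A and 19 in replicate B overlapped an H3K27ac island, against 0 and 0 with the empty vector. The vector carries the coding sequence of SETD5 without introns, so reads of the vector and reads of the gene's own coding exons cannot be told apart. The island at the Setd5 promoter was 8200 bp and 6400 bp long with the empty vector and 7200 bp and 8200 bp with SETD5. These 7 regions are counted among the 5644 gained regions, and the part of the vector in them was not tested.

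Lost and gained regions differed in place from the regions in all 4 lists. A transcription start site lay within 1000 bp of 40.2% of the regions in all 4 lists and 25.1% of all regions. It did so for 7.49% of the lost and 6.09% of the gained regions. Of the lost regions 54.3% were intergenic and 35.4% intronic, and of the gained regions 41.7% were intergenic and 49.6% intronic. The shares were 30.6% and 27.3% for regions in all 4 lists, and 36.9% and 35.6% for all regions. Lost and gained regions were also of low rank. The median lost region spanned 2800 bp and had score percentiles of 26.1 and 23.5 in empty-vector replicates A and B, and the median gained region spanned 2000 bp with percentiles of 23.7 and 26.1 in the SETD5 lists. The regions in all 4 lists had median percentiles of 60.2 to 68.2, and all regions 50.9 to 51.5. The median span was 3800 bp for regions in all 4 lists and 2800 bp for all regions, as for the lost regions. A lost region had another lost or a shortened region within 50 kb in 46.3% of cases. A gained region had another gained or a lengthened region within 50 kb in 55.4%. Such a share rises with the size of the class, 1882 lost against 5644 gained regions. It was not taken for other regions, so neither value shows clustering. The SETD5 lists held more islands. With 31000 islands in each list, 2971 regions were lost and 2823 were gained.

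Among the 23573 regions in all 4 lists, the base pairs covered by islands were compared as a measure of how far the mark spread. A region was called shortened when both SETD5 lengths were below both empty-vector lengths and the mean log2 length was at least 1 lower, which is a 2-fold change, and lengthened in the opposite case. By this rule 1258 regions (5.34%) were shortened and 410 (1.74%) were lengthened. The median region was covered over 3200 bp and 2800 bp with the empty vector and 2600 bp and 2800 bp with SETD5, and the median log2 difference over all of them was −0.11. Shortened regions had a median of 4800 bp and 3800 bp with the empty vector and 1600 bp and 1800 bp with SETD5. Of the 290 shortened regions at a start site, 245 kept an island within 1000 bp of the start in both SETD5 lists (84.5%). The plot of lengths by vector shows both classes against all regions.

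The regions named next had the largest length differences in each direction. Near Enpp2, which encodes the lysophospholipase autotaxin, the region on chromosome 15 from 54759201 to 54776000 was covered over 13600 bp and 9400 bp with the empty vector and over 800 bp and 1000 bp with SETD5. This is 12.6-fold shorter (log2 difference −3.66, SE 0.27). In an intron of Hsd11b1, the enzyme that regenerates active glucocorticoid, 6600 bp and 3400 bp stood against 400 bp in each SETD5 list. At the start of Mtus1 the region had 18400 bp and 16800 bp with the empty vector and 2000 bp and 1200 bp with SETD5, and at the start of Ifrd1 the lengths were 7200 bp and 7000 bp against 600 bp and 1200 bp. The region in an intron of Afap1, an actin filament-associated protein, had 9400 bp and 8200 bp against 1200 bp and 1000 bp, and that of Ica1 had 12200 bp and 10000 bp against 1400 bp in both. A second region of Mgll had 9000 bp and 5400 bp against 600 bp and 1400 bp. In all of these the groups did not overlap, which the choice of members required.

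Among the lengthened regions, the largest difference lay 18 kb from a start site of Rock2, a kinase that acts on the actin cytoskeleton. On chromosome 12 from 16870801 to 16883800 it was covered over 2800 bp in both empty-vector lists and over 13000 bp and 11800 bp with SETD5, which is 4.42-fold longer (log2 difference 2.15, SE 0.11). At the start of Slc25a21, a mitochondrial carrier, 1800 bp and 1400 bp stood against 8000 bp and 6000 bp. A region in an intron of Btbd9 had 2000 bp and 1600 bp against 8000 bp and 7400 bp. At the start of Ogn, a small proteoglycan of the extracellular matrix, the lengths were 1400 bp and 2400 bp with the empty vector and 8200 bp and 6600 bp with SETD5. Lrrc32, which binds latent TGF-β at the cell surface, had 1800 bp and 2000 bp against 6400 bp and 8800 bp. The plot of named regions by library shows these lengths.

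**Figure D1:**
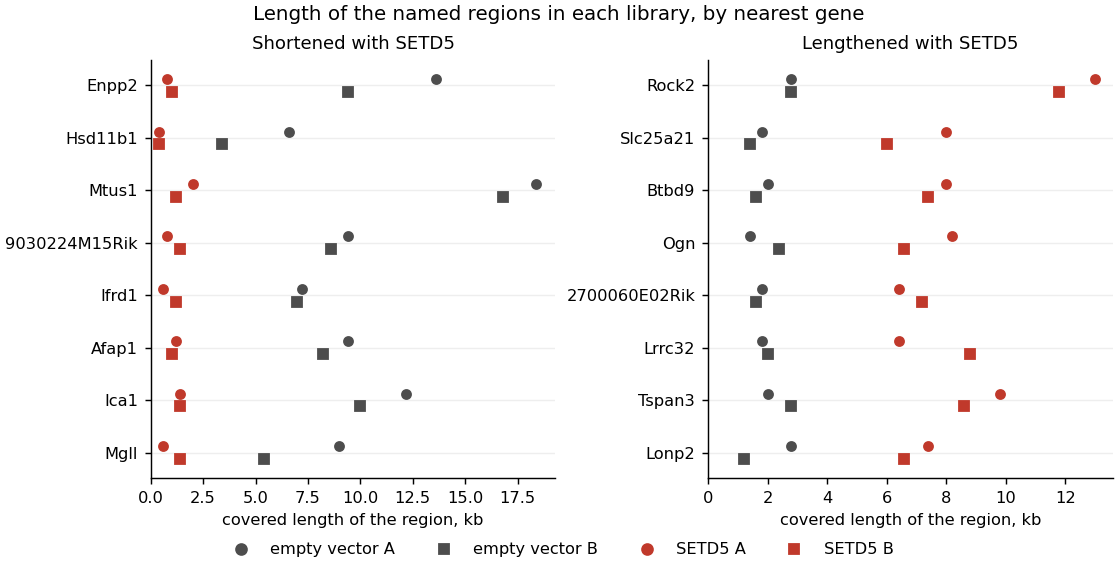
Covered length in kb of the first 8 shortened regions (left) and the first 8 lengthened regions (right), by nearest gene, with 1 point a library. In every region shown both SETD5 points lie on 1 side of both empty-vector points, as the choice of these regions required.

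A limma fit of the log2 lengths over all 23573 regions gave 1 shorter and 0 longer region at an adjusted p under 0.05, while 2973 regions were shorter and 1185 longer at an unadjusted p under 0.05. The 1 region that passed was only 400 bp long in both empty-vector lists and 200 bp in both SETD5 lists, on chromosome 4 from 28104001 to 28104400. The adjusted p of the region near Enpp2 was 0.143. With each library centred on its median, 510 regions were shorter and 423 longer, and among the 5057 regions with a mean covered length of at least 5000 bp, 274 were shorter and 106 longer, a limit chosen after the data were seen. The number of regions called by length thus changed with the scaling and with the regions fitted.

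The rank of a region among the islands of its own list was taken as a second measure, on the scale of normal scores. In the limma fit 2024 regions (8.59%) had a lower rank and 6151 (26.1%) a higher rank with SETD5. The median region in all 4 lists stood 4.63 percentile points higher in the SETD5 lists. With each library centred on its median the split was 3591 lower to 2984 higher, and with 31000 islands in each list it was 3041 to 3044. Of the shortened regions, 693 (55.1%) were also lower in rank, and of the lengthened regions 371 (90.5%) were also higher. The median difference was −20.0 percentile points over all shortened and 38.6 points over all lengthened regions. Length and score of an island come from the same reads, so the rank is no independent measure.

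To compare genes, the base pairs covered by islands within the gene and 50 kb on both sides were taken for 16681 protein-coding genes with a mean of at least 1000 bp, and log2(covered bp + 200) was fitted with limma. At an adjusted p under 0.05, 782 genes (4.69%) were lower and 646 (3.87%) higher with SETD5, and the median log2 difference over all genes was −0.09. Both SETD5 values lay below both empty-vector values in 34.8% of the genes, and above them in 22.5%. With 31000 islands in each list the calls were 1064 lower and 423 higher. Without any 1 of the libraries the calls fell to between 10 and 58 lower and between 0 and 120 higher. Neighbouring genes share islands, so the calls are not independent of each other.

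The largest decreases were at genes with no island left in the SETD5 lists. Around Parm1 17.4 kb and 8.6 kb were covered with the empty vector, and around Hmcn1, a gene of the extracellular matrix, 7.8 kb and 15.8 kb. Esrrg, a nuclear receptor linked to mitochondrial genes, had 9.2 kb and 5.8 kb, and Nrxn2 had 9.6 kb and 3.8 kb. At each of these genes both SETD5 lists were at 0. In the opposite direction, no island of the empty-vector lists lay within 50 kb of Kank4, where SETD5 replicates A and B had 14.4 kb and 12.4 kb. The same held for Slitrk5, with 8.6 kb and 14 kb, for Pgm5, with 10.0 kb and 8.2 kb, and for Mtap2, a microtubule-associated protein, with 8.6 kb and 6.0 kb. Of the genes called lower 57 were at 0 in both SETD5 lists, and of those called higher 113 were at 0 in both empty-vector lists.

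Genes were then read by lists chosen by their roles, 20 lists with 255 genes in all. Over all 16681 genes tested, 4.69% were lower and 3.87% higher, and both SETD5 values lay below both empty-vector values in 34.8%. Decreases without an increase past the threshold were found among genes of lipid droplets, fatty acid uptake and triglyceride synthesis, and adipokines. Decreases and increases were both found among the adipogenic transcription factors, and in the lists of AP-1, YAP and TEAD, glucocorticoid-responsive, cell cycle and preadipocyte genes none passed the threshold. The calls were 3 higher and 0 lower among actin cytoskeleton genes. In the lists of lipid droplets, fatty acid uptake and adipokines the calls of 6, 6 and 3 lower genes became 0 in each list when any 1 library was left out, 3, 1 and 0 with no filter on low values, and 5, 1 and 3 with 10 kb windows. Their medians stayed negative in all of these fits, as did that of the 8 reference genes (−0.36 with all libraries). At most genes of these lists of lipid droplets, uptake and adipokines both SETD5 values lay below both empty-vector values. Leaving out 1 library could therefore not turn their medians positive. The plot of log2 differences by list shows each gene beside the median of all genes.

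**Figure D2:**
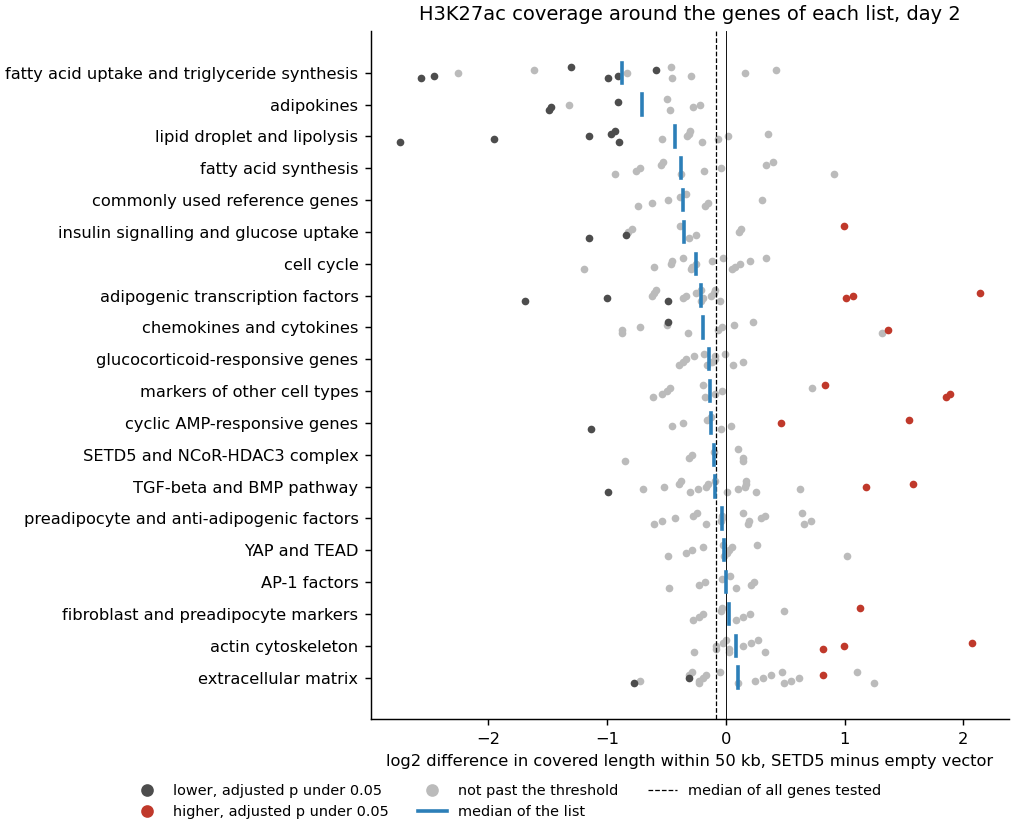
Log2 difference in covered length within 50 kb (SETD5 minus empty vector, x axis) of each tested gene of the 20 lists (y axis), with dark points for genes past the limma threshold downwards, red points for genes past it upwards and grey points for the others. The lists of fatty acid uptake and triglyceride synthesis, adipokines and lipid droplets have medians of −0.87, −0.70 and −0.43, against −0.09 over all genes (dashed line).

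Of the 19 adipogenic transcription factors tested, 3 were lower and 3 higher, against 4.69% and 3.87% of all genes. Around Cebpa, which encodes C/EBPα, islands covered 55.3 kb and 49.1 kb in empty-vector replicates A and B and 17.9 kb and 14.3 kb with SETD5, a log2 difference of −1.69 (SE 0.15, limma adjusted p = 0.0169). The region that holds its start site (chromosome 7 from 35901401 to 35934600) was covered over 33000 bp and 31000 bp with the empty vector and over 11000 bp and 8400 bp with SETD5. Around Pparg, the gene of PPARγ, 181 kb and 165 kb stood against 117 kb and 130 kb, a smaller difference of −0.49 (SE 0.08, limma adjusted p = 0.043). Its window held 8 regions in all 4 lists, and none of its regions was lost or shortened 2-fold. Srebf1, the regulator of lipid synthesis genes, had 60.8 kb and 52.2 kb against 29.4 kb and 26.8 kb (log2 difference −1.0, SE 0.12, limma adjusted p = 0.0241).

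C/EBPβ and C/EBPδ are the early factors. Around Cebpb 54.7 kb and 47.3 kb were covered with the empty vector and 31.7 kb and 35.9 kb with SETD5, a log2 difference of −0.59 that did not pass (SE 0.12, limma adjusted p = 0.0559). Cebpd is annotated as a pseudogene in the gene set used and was not in the fit. Its window had 8.4 kb and 7.4 kb with the empty vector and 8.6 kb and 10.2 kb with SETD5. Ebf2, a factor of the fat lineage, rose from 7.2 kb and 5.0 kb to 21.8 kb and 33.6 kb (log2 difference 2.14, SE 0.29, limma adjusted p = 0.0296), and 10 gained regions lay in its window. Nfib had 42.5 kb and 32.7 kb against 79.1 kb and 77.9 kb, with 8 gained regions, and Klf4 had 6.0 kb and 6.8 kb against 12.6 kb and 13.6 kb. None of these increases passed with 31000 islands in each list, where 4 genes of the list were lower and 0 higher. The calls were 1 lower and 0 higher with 10 kb windows, and 0 and 0 with no filter on low values.

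**Figure D3:**
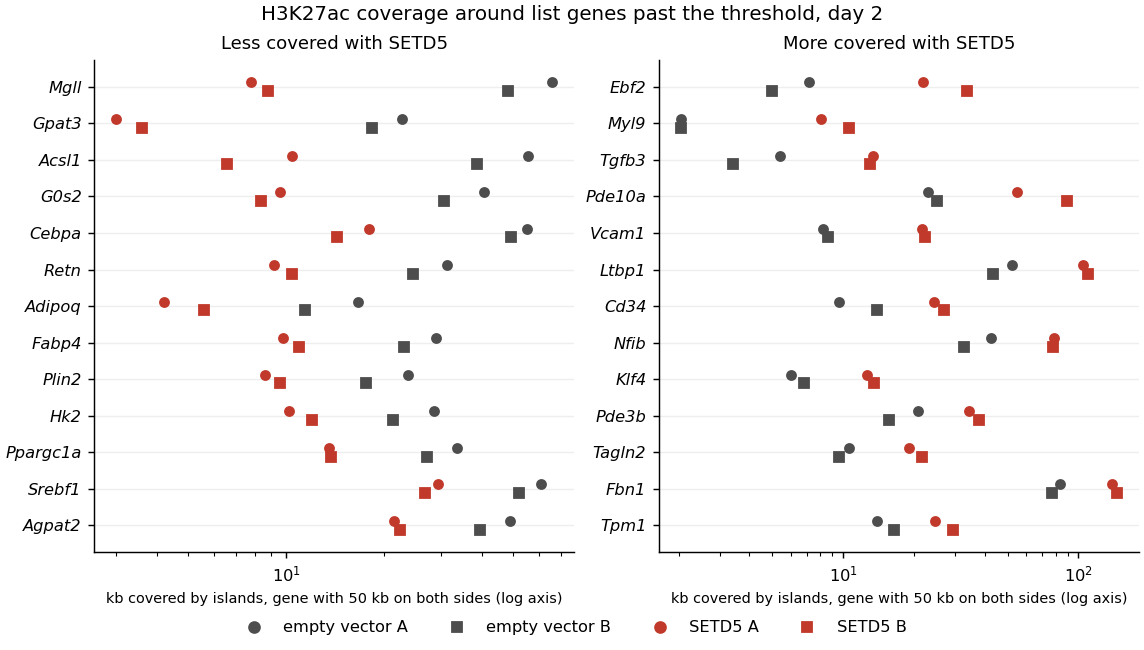
Base pairs covered by H3K27ac islands within each gene and 50 kb on both sides, in kb on a log axis, for the 13 list genes with the largest decreases (left) and increases (right) past the limma threshold, markers of other cell types left out, with 1 point a library. At Cebpa the SETD5 libraries lie at 17.9 kb and 14.3 kb, below 55.3 kb and 49.1 kb with the empty vector, and at Ebf2 they lie at 21.8 kb and 33.6 kb, above 7.2 kb and 5.0 kb.

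Of the 14 genes of lipid droplets and lipolysis, 6 were lower and 0 higher, against 4.69% and 3.87% of all genes. The median of the list was −0.43. Mgll changed most, from 66.0 kb and 48.4 kb to 7.8 kb and 8.8 kb (log2 difference −2.74, SE 0.19, limma adjusted p = 0.0169), and its window held 6 lost regions. G0s2, an inhibitor of adipose triglyceride lipase, had 40.8 kb and 30.6 kb against 9.6 kb and 8.4 kb. The droplet coat genes followed with smaller differences. Plin1 had 24.9 kb and 23.3 kb against 13 kb and 12 kb, Plin2 23.8 kb and 17.6 kb against 8.6 kb and 9.6 kb, and Cidec, which fuses droplets, 31.8 kb and 30.6 kb against 14.6 kb and 17.2 kb. Plin4, another droplet coat gene, had 22.8 kb and 25.2 kb against 12.6 kb and 13 kb. The hormone-sensitive lipase gene Lipe had 36.5 kb and 32.2 kb against 34.1 kb and 35.3 kb (log2 difference 0.02, SE 0.10), and its groups overlapped.

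Of the 14 tested genes of fatty acid uptake and triglyceride synthesis, 6 were lower and 0 higher, against 4.69% and 3.87% of all genes. In 12 of the 14 both SETD5 values lay below both empty-vector values, against 34.8% of all genes. Gpat3 (Agpat9 in the annotation), an enzyme of the first step of triglyceride synthesis, had 22.8 kb and 18.4 kb against 3.0 kb and 3.6 kb (log2 difference −2.57, SE 0.19, limma adjusted p = 0.0169). Acsl1 had 55.4 kb and 38.8 kb against 10.4 kb and 6.6 kb, with 3 lost and 2 shortened regions in its window. Fabp4, the fatty acid-binding protein of adipocytes, had 29.1 kb and 23.0 kb against 9.8 kb and 11 kb, and Lpl, which frees fatty acids from lipoproteins, had 66.1 kb and 58.8 kb against 34.0 kb and 32.2 kb. Agpat2, an acyltransferase of triglyceride synthesis, had 48.8 kb and 39.4 kb against 21.4 kb and 22.4 kb, and Slc27a1, a fatty acid transporter, had 30.4 kb and 30 kb against 19.2 kb and 21 kb. At Cd36, which also carries fatty acids into the cell, 13.8 kb and 4.8 kb stood against 2.0 kb and 1.2 kb, which did not pass (log2 difference −2.25, SE 0.57, limma adjusted p = 0.0833). The windows of Pck1 and Aqp7 held no island in any of the 4 lists.

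All 8 tested adipokine genes had both SETD5 values below both empty-vector values, against 34.8% of all genes. Among the adipokine genes 3 passed, against 4.69% called lower over all genes. Adipoq, which encodes adiponectin, had 16.6 kb and 11.4 kb against 4.2 kb and 5.6 kb (log2 difference −1.47, SE 0.26, limma adjusted p = 0.046). The island at its start was 3200 bp and 2800 bp long with the empty vector and was in no SETD5 list. Retn, the gene of resistin, had 31.4 kb and 24.6 kb against 9.2 kb and 10.4 kb, and Lep, the gene of leptin, 26.5 kb and 21.2 kb against 13.3 kb and 11.9 kb. Among the 10 genes of insulin signalling, Irs2 and Hk2 were lower and Pde3b was higher, against 4.69% and 3.87% of all genes. The calls of this list were 2 lower and 0 higher with 31000 islands in each list. They were 1 and 0 with 10 kb windows, and 0 and 0 with no filter on low values. Irs2, an adaptor of the insulin receptor, had 70 kb and 64.2 kb against 33.4 kb and 42 kb, and Hk2, a hexokinase, had 28.6 kb and 21.4 kb against 10.2 kb and 12 kb. Pde3b, which lowers cyclic AMP after insulin, had 20.8 kb and 15.6 kb against 34.4 kb and 38 kb. The glucose transporter gene Slc2a4 had 41.3 kb and 31.1 kb against 20.5 kb and 19.9 kb and did not pass (log2 difference −0.82, SE 0.16, limma adjusted p = 0.054).

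None of the 11 genes of fatty acid synthesis passed, with 2 of them, Elovl5 and Acss2, above in both SETD5 lists and 6 below. Over all genes 22.5% were above and 34.8% below. Scd1, a desaturase, had 38.6 kb and 37.8 kb against 15.8 kb and 25 kb (log2 difference −0.94, SE 0.24, limma adjusted p = 0.083), and Fasn, the fatty acid synthase gene, had 44.1 kb and 35.5 kb against 24.5 kb and 30.7 kb. Of the 12 glucocorticoid-responsive genes 0 passed in either direction. In 7 of these genes both SETD5 values lay below both empty-vector values, against 34.8% of all genes. Their median log2 difference was −0.14, and their windows summed to 699 kb and 666 kb with the empty vector and 592 kb and 649 kb with SETD5. Among them Fkbp5 had 125 kb and 127 kb with the empty vector and 115 kb and 122 kb with SETD5. Of 9 cyclic AMP-responsive genes, Ppargc1a was lower, from 33.6 kb and 27.2 kb to 13.6 kb and 13.8 kb, and Pde10a and Pde4d were higher. Over all genes 4.69% were lower and 3.87% higher. The calls of this list were 1 lower and 1 higher with 31000 islands in each list, and 0 and 0 with 10 kb windows or no filter. Pde10a had 23.0 kb and 25 kb against 55.0 kb and 89.4 kb, with 13 gained regions in its window.

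Only increases passed among genes of the cytoskeleton, while both directions passed among genes of the matrix and of TGF-β signalling. Over all genes 4.69% were lower and 3.87% higher. With no filter on low values 0 genes of these lists passed. With 10 kb windows 1 matrix gene was lower and 1 higher, and 0 and 1 of the TGF-β list. Of 14 actin cytoskeleton genes, Myl9, Tagln2 and Tpm1 were higher and 0 were lower. The actin list had 2 higher genes with 31000 islands in each list and 0 with 10 kb windows. Myl9, a myosin light chain, had 2.04 kb in both empty-vector lists and 8.04 kb and 10.6 kb with SETD5 (log2 difference 2.07, SE 0.22, limma adjusted p = 0.0201). Tagln2 had 10.6 kb and 9.6 kb against 19 kb and 21.6 kb, and Tpm1, a tropomyosin gene, had 14 kb and 16.4 kb against 24.6 kb and 29.4 kb. Of 19 genes of the TGF-β and BMP pathway, 1 was lower, and the ligand gene Tgfb3 and Ltbp1, which binds latent TGF-β, were higher. Tgfb3 had 5.4 kb and 3.4 kb against 13.4 kb and 13 kb. Ltbp1 had 52.2 kb and 43.2 kb against 105.0 kb and 110.2 kb, with 16 gained regions. Of 21 matrix genes, Fbn1, which encodes fibrillin, was higher, with 83.6 kb and 77.4 kb against 139 kb and 146 kb, and Col4a1 and Col6a1 were lower. Col4a1 had 139 kb in both empty-vector lists against 111 kb and 113 kb, and Col6a1 had 69 kb and 61 kb against 36 kb and 40 kb. In the list of chemokines and cytokines 12 genes were tested, and the genes that passed encode neither. Nfkbia was lower and Vcam1, an adhesion molecule gene, was higher, with 8.2 kb and 8.6 kb against 21.6 kb and 22.2 kb. Over all genes 4.69% were lower and 3.87% higher. With equal numbers of islands, 10 kb windows or no filter, 0 genes of this list were lower and 1 was higher.

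The cells were checked against their markers. Of the 10 fibroblast and preadipocyte marker genes, 9 had an island at a start site in all 4 lists. Cd34 was the 1 gene that passed, with 9.6 kb and 14 kb against 24.4 kb and 27 kb. Over all genes 3.87% were higher. With equal numbers of islands, 10 kb windows or no filter on low values, 0 genes of this list passed. Of the 16 markers of other cell types, 14 had no island at a start site in any list and 4, Cdh5, Kdr, Myod1 and Alb, had no island within 50 kb. Islands covered 162 kb and 137 kb of the summed windows of these 16 genes with the empty vector, and 129 kb and 132 kb with SETD5. Of the 12 genes tested, Ptprc, Cdh1 and Myf5 were higher and 0 were lower, against 3.87% and 4.69% of all genes. None of these 3 had an island at a start site. The higher calls became 0 with 10 kb windows or no filter on low values, and 2 with 31000 islands in each list. The part of other cells in the results was not tested. None of the 7 genes of SETD5 and the NCoR-HDAC3 complex and none of the 8 reference genes passed, although 7 of the 8 reference genes had negative values, with a median of −0.36.

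The other libraries of the series showed where these regions stood before induction and where SETD5 was found. Of the lost regions, 20.5% ± 0.526 (SD, n = 2) overlapped an H3K27ac island of empty-vector cells at day 0, and 73.0% had no island at day 0 in any of the 4 lists of either vector. Gained regions overlapped day 0 islands of empty-vector cells in 40.7% ± 0.902 and of SETD5 cells in 53.0% ± 2.46 of cases (SD, n = 2). Of them 33.8% were in all 4 lists of day 0, and 39.5% were in none. For the regions in all 4 lists of day 2, the share over empty-vector islands of day 0 was 81.4% ± 0.351. H3K4me1, which marks enhancers also before they become active, was mapped in 1 library at day 0 and 1 at day 2, both labelled as carrying the virus with tagged SETD5. H3K4me1 islands were found over 36.1% of the lost regions at day 0 and over 54.4% at day 2. Over gained regions the order was opposite, with 43.5% at day 0 and 37.4% at day 2. These libraries have no replicate, so that neither difference has an error.

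SETD5 with its V5 tag was mapped at 6 h after induction in 2 libraries. Its islands overlapped 28.9% and 22.5% of the lost regions, 50.4% and 37.7% of the gained regions and 78.9% and 58.0% of the regions in all 4 lists. The lost class was the lowest in both libraries. Among regions of 1000 to 3000 bp the shares were 22.6% ± 4.87 for lost, 42.4% ± 9.03 for gained and 49.5% ± 21.6 for regions in all 4 lists (SD, n = 2). Shortened regions stood at 62.9% and 42.9%. Endogenous SETD5 at 6 h, in 1 library, overlapped 2.60% of the lost, 1.44% of the gained and 7.97% of the regions in all 4 lists. The plot of overlap by library shows these shares.

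**Figure D4:**
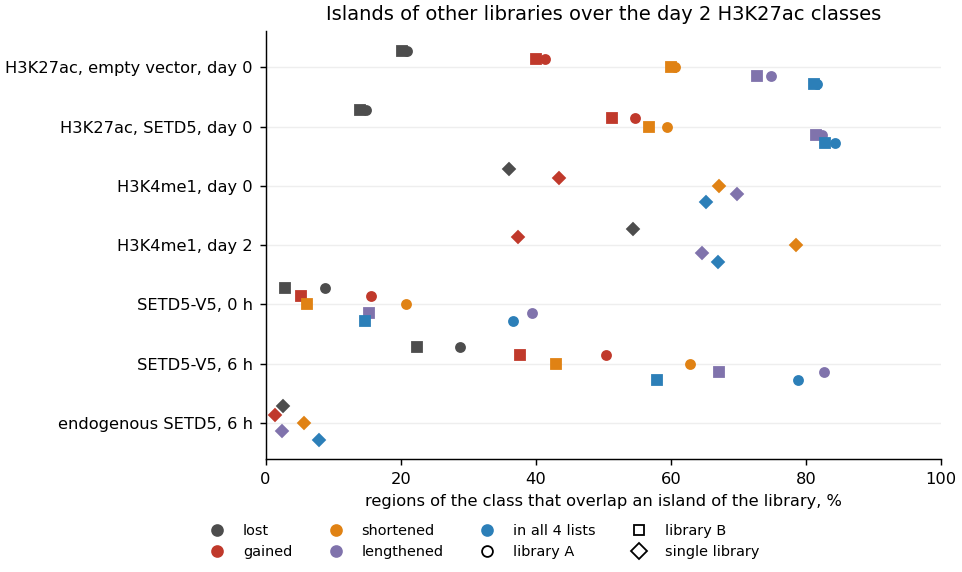
Share of the regions of each class (colours) that overlap by at least 1 bp an island of another library of the series (y axis), in percent, with 1 point a library. Lost regions have the lowest share in both H3K27ac pairs of day 0 and in both SETD5-V5 libraries of 6 h, and at day 2 H3K4me1 lay over 54.4% of lost and 37.4% of gained regions.

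Motifs were counted as exact matches on both strands in the central 400 bp of each region. The C/EBP motif shown above, TTGCNNAA, was in 22.7% of the lost regions, 22.4% of the gained regions and 19.7% of all 43542 regions. Away from start sites the shares were 23.0%, 22.9% and 21.9%, so that the lost and gained classes differed by less than 1 percentage point. The AP-1 motif TGANTCA was in 17.9% of the lost, 16.6% of the gained and 15.2% of all regions, and the TEAD motif GGAATG in 20.2%, 23.4% and 21.1%. The EBF motif TCCCNNGGGA was in 1.38% of the lost, 1.05% of the gained and 1.17% of all regions. The glucocorticoid receptor motif GNACANNNTGTNC was in 1.17%, 1.47% and 1.13%, and the PPAR-RXR repeat AGGTCANAGGTCA and the NFI motif TTGGCNNNNNGCCAA were in under 1% of every class. A match describes only the letters in the window. None of these shares was tested.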

How the data were processed

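H3K27ac ChIP-seq was compared in 2 libraries of each vector at day 2. Per the study's methods, the authors aligned 36 bp reads to mm9, by Bowtie2 or ELAND, and ran SICER on each library alone (window 200 bp, E-value 100, gap 400 bp for H3K27ac and H3K4me1, 600 bp in SETD5 libraries). The deposited lists give position and a score per island, on a scale that depends on the library, so that only ranks within a list were compared. They hold no read counts, and the authors' DESeq2 analysis of reads was not repeated. The depth behind an island is therefore unknown, and the number of libraries limits the precision. The study speaks of biological replicates without further detail, and p-values measure only the spread between these libraries.

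Islands on the mitochondrial chromosome, 1 a list, were left out. Gene positions came from GENCODE M1 on NCBIM37, the same build. Merged regions and genes were compared with limma 3.58.1 in R 4.3.3, with a variance trend and Benjamini-Hochberg adjustment over all regions or genes and a threshold of 0.05. Python 3.11.15 with numpy 2.4.6, scipy 1.17.1, pandas 2.3.3 and matplotlib 3.10.9 did the rest, and the fits were tested on simulated data. Named are the 12 lost and 12 gained regions of highest mean score percentile near a gene, the shortened and lengthened regions of largest length difference with at least 5000 bp where longer, the genes of largest change whose windows do not overlap, all list genes past the threshold, apart from 1 that is not reported here, and Setd5. Of the ranked shortened and lengthened regions and genes, at most the first 8 a direction are named. The members, lists and rules were chosen with earlier results of these data known. Alternatives were equal numbers of islands, other scaling, merging within 1000 bp, other windows, pseudocounts and filters, the replicate letter as a block, and each library left out.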

Additional observations from a re-analysis of the deposited data

Results flagged for a closer look

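H3K27ac islands over coding exons of Setd5 were also found in lists that the day 2 comparison does not use. At day 0, before the hormones were added, 15 of the 21 merged coding exons overlapped an island in SETD5 replicate A and 16 in replicate B, against 0 in both empty-vector lists of day 0. Reads of the vector, which carries the coding sequence, and reads of the gene's own exons cannot be told apart.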

How the results depend on the processing

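Of the 58 called genes and 16 shortened or lengthened regions examined singly, none reversed its direction under the alternatives run for it. The regions had been chosen for lengths that did not overlap between the vectors. Leaving out 1 library or fitting the block could therefore not reverse them. The 58 genes had been chosen because they passed the threshold. Most of these genes lost their call without any 1 library. With no filter 39 lost it, and with the 31000 highest-scoring islands of each list 13 did. With 10 kb windows 28 lost it and 25 kept it, and the others were not in that fit. With the 31000 highest-scoring islands of each list, 2971 regions were lost and 2823 gained, with islands above the median score of their list 994 and 3143, and by shared segments covered under 50% by the other vector 3147 were lost. Leaving out 1 library gave 2369 to 3211 lost and 6739 to 8526 gained regions. Without empty-vector replicate A 2980 were lost, without replicate B 3211, and without SETD5 replicate A 8526 were gained.

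In the length fit, 510 regions were shorter and 423 longer with libraries centred, 274 and 106 among regions of at least 5000 bp (chosen after seeing the data), and 0 shorter with no variance trend or equal numbers. Leaving out 1 library gave 0 to 7 shorter regions, with 4 without empty-vector replicate A, 7 without replicate B and 0 without either SETD5 library. In the rank fit, lower and higher calls were 3591 and 2984 centred, 3405 and 3375 quantile normalized, 3041 and 3044 with equal numbers, and 1277 and 3364 with no variance trend. Leaving out 1 library gave 1307 to 2613 lower and 2772 to 8936 higher, with 1307 and 3022 without SETD5 replicate A and 2772 higher without replicate B.

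In the gene fit, lower and higher calls were 1674 and 1604 centred, 214 and 320 with no filter, 244 and 276 with 10 kb windows, and 423 higher with equal numbers. Leaving out 1 library gave 10 to 58 lower and 0 to 120 higher genes: 58 and 0 without either empty-vector library, 10 and 120 without SETD5 replicate A, 10 and 119 without replicate B. The lone library is then assumed to vary like the other vector's pair.

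Letters A and B are shared by both vectors, but the correlation of their A minus B differences was 0.03 for length, 0.17 for rank and 0.10 for genes, so they were taken as names only. With the letter as a block, calls by rank rose to 2831 lower and 8750 higher, while 0 shorter regions and 0 lower and 0 higher genes passed in limma, and all 58 called genes examined singly lost their call. Without the block 2938 genes were lower and 2033 higher at an unadjusted p under 0.05. Within the block of letter A alone 4083 regions were lost and 9685 gained, and within letter B 3629 and 9802. List medians of preadipocyte genes and of YAP and TEAD genes turned positive with libraries centred, where 1 preadipocyte gene was lower and 5 were higher. Those of AP-1, matrix and fibroblast genes turned negative with equal numbers of islands.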
